A study of Sus scrofa with 6 samples.

Results

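Cytosolic ribosomal protein genes were picked out by a rule on their symbols, and this choice was made with earlier results of these data known. The rule took names made of RPL or RPS and a number, with an optional A, X or L form. RPSA, RPLP0, RPLP1 and RPLP2 were taken too. The rule found 81 of the 17201 listed genes, 49 of the large and 32 of the small ribosomal subunit. Of the 79 usual mammalian cytosolic ribosomal proteins, 76 were among them, and the other 5 members were paralogs named as like forms (RPL3L, RPL7L1, RPL22L1, RPL26L1 and RPS27L). FAU, a usual ribosomal protein gene with another kind of name, stood outside the rule and is given beside the members. RNA was sequenced from the prefrontal cortex of 6 pigs (Sus scrofa) aged 3 months. The VPA group (animals 391, 392 and 393) had received valproic acid at 75 mg/kg through exposure in early gestation, and the control group (animals 401, 402 and 408) was labelled as untreated. Valproic acid is an anticonvulsant and histone deacetylase inhibitor, and the series describes these animals as an autism model. The labels name separate animals, without saying whether they came from separate litters.

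A cytosolic ribosome joins a small subunit, which reads the mRNA, to a large subunit, which forms peptide bonds. Each carries a set of proteins built in at about 1 copy per ribosome, so cells keep their synthesis in balance. In mammals the mRNAs of these proteins begin with a tract of pyrimidines (the terminal oligopyrimidine, or TOP, motif), through which mTORC1 signalling and the RNA-binding protein LARP1 set their translation. Neurons use ribosomes in the cell body and, for local protein synthesis, in dendrites and axons.

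Libraries held 16285517 to 17989032 counts, so that 1 CPM (a count scaled to a common library size by the file's total) stood for 16.29 to 17.99 reads. Cortical markers were present in every library: SLC17A7, the vesicular glutamate transporter gene, had 1012 to 1090 CPM in VPA and 1124 to 1161 CPM in control. Markers of striatal projection neurons, a region under the cortex, summed to 203.5, 228.9 and 635.2 CPM in VPA 391, 392 and 393, against 162.5 to 188.1 CPM in control. In bulk tissue, fewer cells of a type and less RNA per cell cannot be told apart.

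Most members were among the more abundant mRNAs per length, but paralogs such as RPL3L (mean 0.658 CPM) stood far lower. All 81 passed the filter on low counts, and 74 averaged more than 100 CPM. The median level per length of the 76 usual members was 320 FPKM (CPM per kilobase of gene length), against 6.51 FPKM over all genes tested. Of these 76, 56 had a mean of 200 to 600 FPKM. The median SD of log2 CPM over the 6 libraries was 0.08 for members and 0.13 for all genes tested. No set of like abundance was compared, so these SDs do not set the members apart from other abundant genes.

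RPLP1, an acidic stalk protein that helps recruit elongation factors, had the highest level per length, at 928 ± 45.2 FPKM in VPA and 835 ± 108 FPKM in control (SD, n = 3 each). RPL37 followed at 633 ± 58.6 FPKM in VPA and 639 ± 49.7 in control, then RPL17 at 643 ± 26.6 and 601 ± 46.4. RPL23A, which lies at the exit of the peptide tunnel, had 594 ± 53.6 FPKM in VPA and 586 ± 39.2 in control. Neighbours in this order below RPLP1 differed by less than the larger of their SDs.

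Levels per length also depend on the length used, which had a median of 767 bases over the 76, against 3755 over all genes tested. Per read and not per length, RPS2, a protein near the mRNA entry channel, was the highest member with a mean of 917 CPM over the 6 libraries, but its FPKM was 155 because the deposited values use a length of 5903 bases. Lengths over 2000 bases applied to 5 usual members (RPL13A, RPL15, RPL34 and RPS2 among them), so their FPKM ranks depend on the gene model used. In the RefSeq table RPL13A carries FLT3LG as a synonym and RPL18 stands for a pair of loci, so the counts of both are uncertain.

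**Figure D1:**
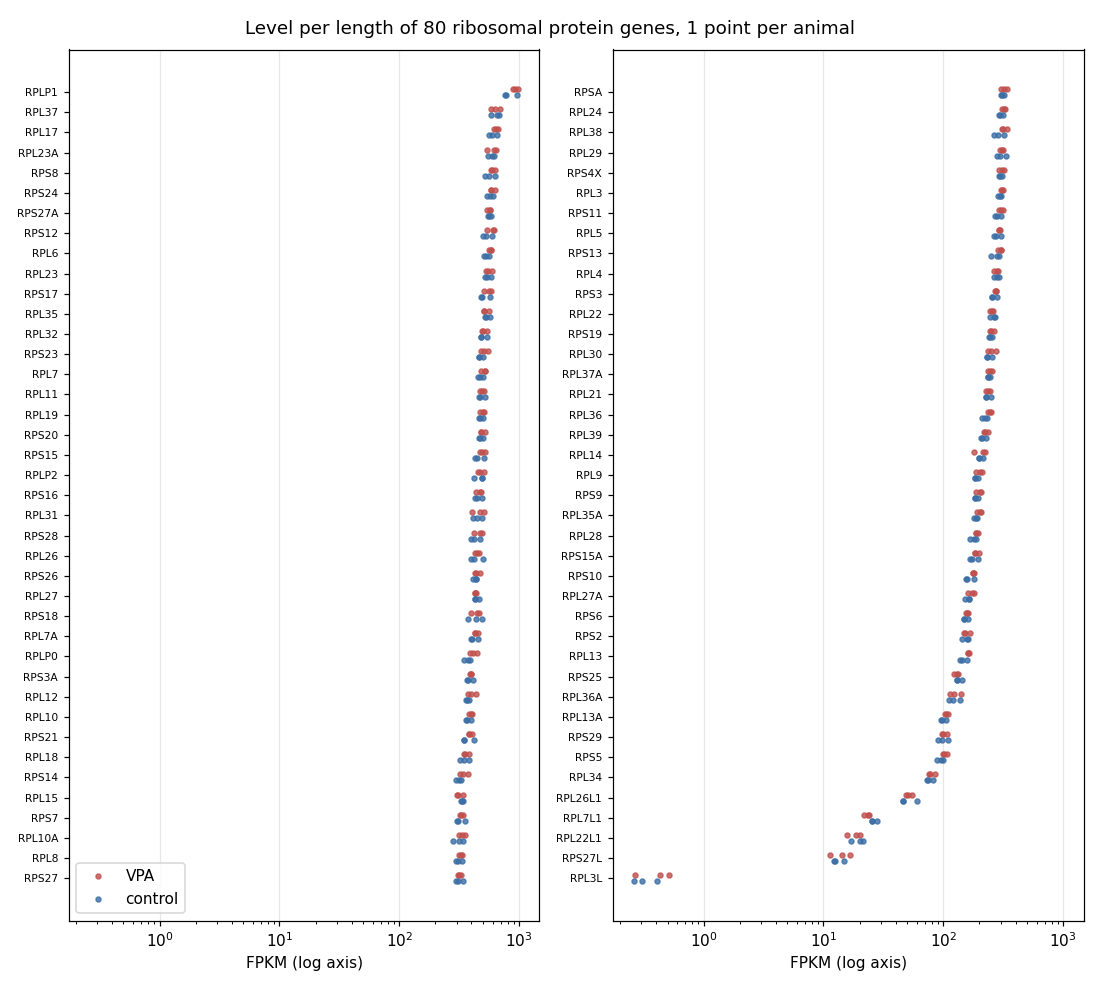
Level per length in FPKM (log axis) of 80 members, ordered by mean, with 1 point per animal (red VPA, blue control). RPLP1 leads at a mean of 882 FPKM, most members lie between 200 and 600 FPKM, and the paralogs RPL7L1, RPL22L1, RPS27L and RPL3L fill the lowest places.

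No ribosomal protein gene passed the test over all genes between VPA and control cortex. With edgeR's quasi-likelihood test and Benjamini-Hochberg adjustment at 0.05, 0 of 81 members were called, against 0.362% of the 14373 genes tested (52 genes; 0.278% higher and 0.0835% lower in VPA). The lowest adjusted p of a member was 0.194, for RPL7L1. At an unadjusted p under 0.05 stood 6 members (7.41%), against 16.2% of all genes tested. Of these, 5 were higher in VPA (6.17%, against 8.69%) and 1 was lower (1.23%, against 7.47%). DESeq2 also called 0 of 80 members, against 3.64% of its 12198 genes, and had 5 of 81 at an unadjusted p under 0.05 against 11.0% of all genes. Limma on log2(FPKM + 1) called 0 of 80 members, against 0.0151% of 13251 genes, with 6 at an unadjusted p under 0.05, against 15.5%.

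The intervals bound how large a difference these libraries leave room for. Log2 fold changes (VPA over control) of the 76 usual members ran from -0.08 to 0.16, and their 95% intervals stayed between -0.21 (RPS18) and 0.32 (RPLP1), which is 0.864-fold to 1.25-fold. For 68 of the 76 the whole interval lay within 0.25 of zero on the log2 scale. The median standard error was 0.06 for members and 0.10 for all genes tested, whose median level was far lower.

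Small positive differences were more common than negative ones. Log2 fold changes were above 0 for 64 of 81 members (79.0%, against 50.5% of all genes tested), with a median of 0.04 against 0.0018 over all genes. Large-subunit members had a median of 0.04 (37 of 49 positive) and small-subunit members one of 0.05 (27 of 32 positive). These counts moved with single animals: 49 members were positive without VPA 392, 53 without control 401, 53 without control 408 and 74 without control 402. The median was 0.02 without VPA 392, without control 401 or without control 408, 0.08 without VPA 393 and 0.09 without control 402.

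**Figure D2:**
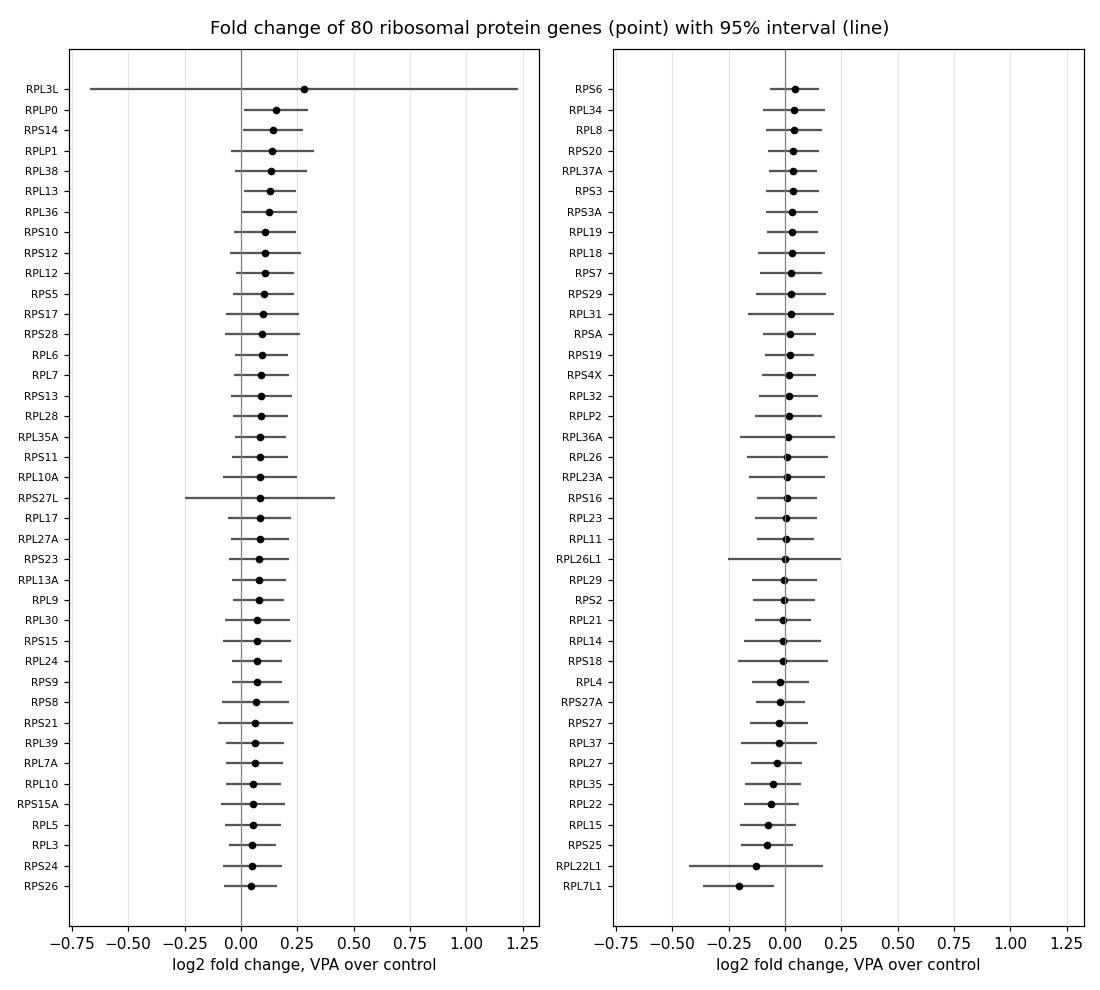
Log2 fold change of 80 members, VPA over control (points), with its 95% interval (lines), ordered from highest to lowest. Intervals of the usual members stay between -0.21 and 0.32, and those of the low paralogs RPL3L, RPS27L and RPL22L1 are wider.

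Of the stalk proteins, RPLP0 carries the P1 and P2 proteins that contact elongation factors, and its mRNA is often used as a reference in quantitative PCR. RPLP0 had 454.5, 489.9 and 424.9 CPM in VPA 391, 392 and 393, against 409.2, 427.0 and 381.9 CPM in control 401, 402 and 408. Control 402 lay above VPA 393, so the groups overlapped. Its log2 fold change was 0.16 ± 0.064 (SE, edgeR adjusted p = 0.266), the highest of the usual members. RPLP1 had 484.7, 518.9 and 472.8 CPM in VPA, against 407.0, 508.6 and 412.9 CPM in control (log2 fold change 0.14 ± 0.083, edgeR adjusted p = 0.44). RPLP1 was high in control 402 alone among the controls. RPLP2 had 210.8, 225.5 and 202.3 CPM in VPA and 217.5, 220.6 and 188.1 in control, a log2 fold change of 0.02.

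Of the 81 members, 4 had groups that did not overlap (3 higher, RPL13 and RPL36 among them, and RPL7L1 lower in VPA), which is 4.94%, against 21.2% of all genes tested (12.1% higher and 9.07% lower). RPL13, a large-subunit protein, had 206.9, 204.7 and 205.9 CPM in VPA, against 183.4, 199.4 and 177.0 CPM in control (log2 fold change 0.13 ± 0.053, edgeR adjusted p = 0.263). RPL13 differed by little among VPA animals and more among controls, with control 402 the closest to VPA. RPL36, also of the large subunit, had 92.4, 98.1 and 96.6 CPM in VPA, against 87.6, 90.6 and 82.6 in control (0.13 ± 0.055, edgeR adjusted p = 0.292). In both RPL13 and RPL36 control 408 was the lowest library and control 402 the highest control.

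RPS14, a small-subunit protein of the platform whose loss underlies the anaemia of human 5q deletion, had 249.3, 290.6 and 262.7 CPM in VPA. In control it had 249.7, 242.3 and 229.2 CPM, so the groups overlapped by a narrow margin (log2 fold change 0.14 ± 0.061, edgeR adjusted p = 0.284). VPA 392 was its highest library.

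RPL5 and RPL11 bind 5S rRNA and, when not built into ribosomes, restrain the p53 regulator MDM2. RPL5 had 291.1, 299.3 and 295.3 CPM in VPA, against 267.3, 305.0 and 274.6 in control (log2 fold change 0.05 ± 0.056, edgeR adjusted p = 0.705). RPL11 had 279.9, 293.2 and 269.3 CPM in VPA, against 265.7, 296.2 and 271.4 in control (0.0031 ± 0.057, edgeR adjusted p = 0.985). For both, control 402 was the highest library and control 401 the lowest. The 18 genes mutated in human Diamond-Blackfan anaemia that are members, RPL5 and RPL11 among them, had a median log2 fold change of 0.03. Of the 18, 14 were positive, near the share of all 81 members (64, 79.0%), against 50.5% of all genes tested. None of the 18 had an unadjusted p under 0.05 in edgeR, against 7.41% of members and 16.2% of all genes tested. RPS19, the most often mutated of these, had 226.1, 246.7 and 230.8 CPM in VPA and 228.3, 236.2 and 223.2 CPM in control.

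RPS6, the small-subunit protein that S6 kinases phosphorylate below mTORC1, had 215.2, 212.3 and 206.8 CPM in VPA, against 198.2, 214.0 and 198.6 CPM in control (log2 fold change 0.04 ± 0.050, edgeR adjusted p = 0.733). RPSA, also known as the laminin receptor, had 322.5, 341.7 and 304.5 CPM in VPA and 324.0, 314.4 and 308.6 in control. Its control libraries lay within the range of its VPA libraries. RPS27A, which is made as a fusion with ubiquitin, had 325.0, 349.5 and 343.4 CPM in VPA, against 339.7, 354.0 and 330.1 in control, with a log2 fold change of -0.02 ± 0.049 (edgeR adjusted p = 0.874).

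RPS4X, RPL10, RPL36A and RPL39 are X-linked in mammals, and rare RPL10 variants have been described in boys with autism. RPL10 had 334.5, 344.7 and 321.8 CPM in VPA, against 309.3, 339.6 and 306.1 CPM in control (log2 fold change 0.06 ± 0.056, edgeR adjusted p = 0.681). RPS4X had 464.8, 486.2 and 443.0 CPM in VPA and 453.5, 471.7 and 439.9 CPM in control (0.02 ± 0.053). In both genes VPA 392 was the highest library and control 408 the lowest. Sex is not given in the labels. EIF1AY, a Y-linked initiation factor gene, had 0 counts in VPA 392 and 2 in control 401, against 450 to 548 in the other 4 libraries.

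RPL15, RPS25 and RPL7L1 were among the members with the lowest fold changes. RPL15, a large-subunit core protein, had 791.6, 704.3 and 715.7 CPM in VPA, against 757.4, 778.3 and 775.8 CPM in control (log2 fold change -0.08 ± 0.057, edgeR adjusted p = 0.552). VPA 391 lay above every control and the other VPA animals below them. RPS25, a small-subunit protein needed for initiation at some viral internal entry sites, had 194.7, 207.4 and 213.3 CPM in VPA, against 209.6, 226.5 and 209.2 CPM in control (-0.08 ± 0.052, edgeR adjusted p = 0.478).

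**Figure D3:**
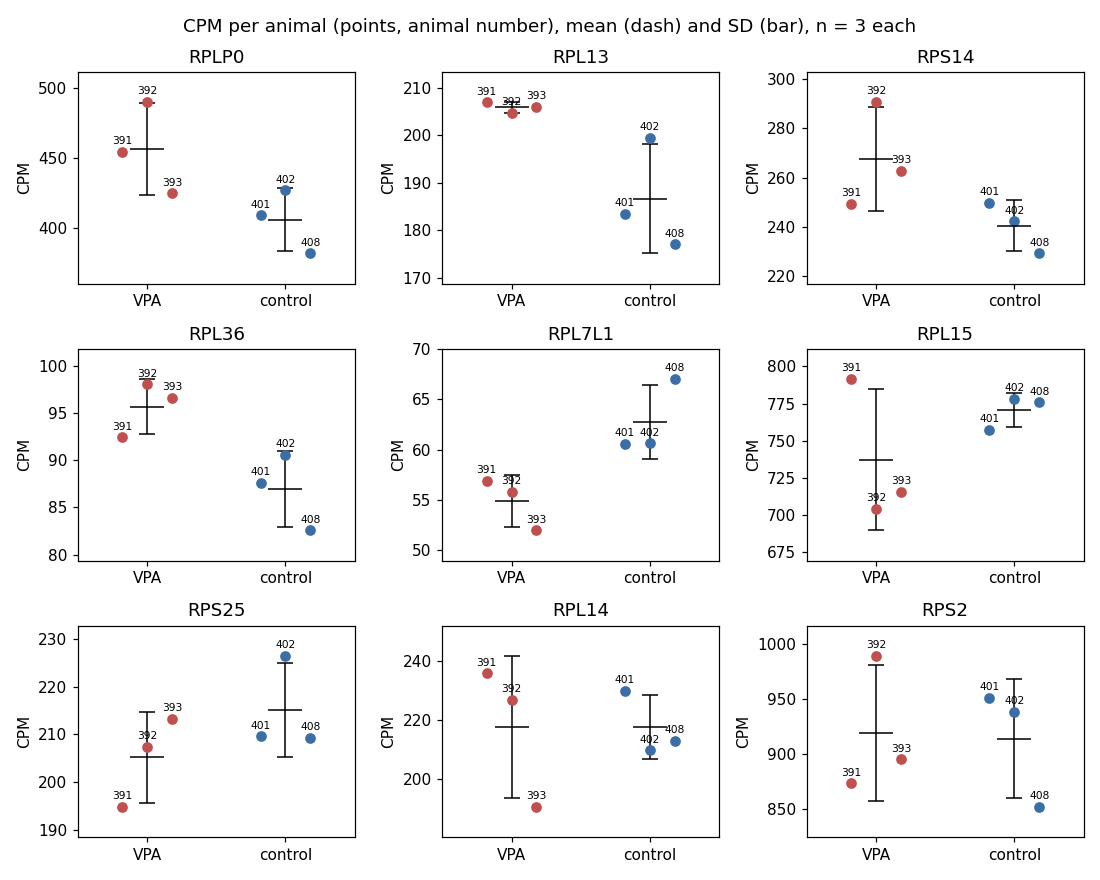
CPM per animal for 9 members (points labelled by animal number), with group mean (dash) and SD (bar), n = 3 each; the vertical axes do not start at 0. RPL13 and RPL36 are higher and RPL7L1 lower in VPA without overlap, while the groups of RPLP0, RPS14, RPL15, RPS25, RPL14 and RPS2 overlap.

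The paralogs stood far below their parents, and none was called. RPL7L1, whose product takes part in large-subunit assembly, had 56.9, 55.8 and 52.0 CPM in VPA, against 60.5, 60.6 and 67.0 CPM in control. Its log2 fold change of -0.20 ± 0.071 (edgeR adjusted p = 0.194) was the lowest of all members, while RPL7 stood at 0.09 ± 0.055. Per length, RPL7L1 was at 4.53 ± 0.0465% of RPL7 in VPA and 5.57 ± 0.437% in control (SD, n = 3 each), lower in all 3 VPA animals than in any control. A two-sided exact permutation test gave p = 0.1, the smallest that 3 against 3 animals allow, and 0.5 after adjustment over the 5 paralog pairs.

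The other 4 pairs did not separate the groups. RPL22L1 was at 7.12 ± 0.752% of RPL22, an RNA-binding large-subunit protein, in VPA and at 7.5 ± 1.21% in control. RPL26L1 was at 11.5 ± 0.744% of RPL26 in VPA and 11.6 ± 0.528% in control, and the pair is near-identical, so reads may be shared. RPS27L, a p53 target in human cells, was at 4.46 ± 0.685% of RPS27 in VPA and 4.17 ± 0.691% in control. RPL3L, a form of heart and skeletal muscle, had only 8, 15 and 14 counts in VPA and 10, 8 and 13 counts in control. Exact permutation p-values for these 4 pairs ran from 0.6 to 0.9.

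The members moved together from animal to animal, over a range within each group that was wider than the difference between the group means. As each gene's log2 CPM minus its mean over the 6 libraries, the median member stood at 0.02, 0.09 and -0.02 in VPA 391, 392 and 393, against -0.07, 0.07 and -0.07 in control 401, 402 and 408. The same median over all genes tested stayed between -0.01 and 0.02 in every library. VPA 392 and control 402 were the high animals and control 401 and 408 the low ones, so the groups overlapped. The group means of the median were 0.03 ± 0.055 in VPA and -0.02 ± 0.080 in control (SD, n = 3 each). Their difference of 0.06 was near the SD in VPA and under that in control. The highest and lowest control differed by 0.14, which is a range of single animals and not of means.

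Most members followed this order in the high and low animals. Above its own mean in VPA 392 were 76 of 81 members, in VPA 391 51 and in VPA 393 29, against 9 in control 401, 66 in control 402 and 10 in control 408. Of all genes tested, 46.2% (control 408) to 57.0% (VPA 393) stood above their own mean. The high and low animals were named from the medians of the same members, so the counts describe how far single genes followed them. The highest of the 6 libraries was VPA 392 or control 402 for 68 of 81 members (84.0%, against 33.5% of all genes tested). The lowest was control 401 or control 408 for 64 (79.0%, against 35.9%). Within the controls, control 402 was the highest for 68 members (84.0%, against 31.8% of all genes tested). Within VPA, animal 392 was the highest for 64 (79.0%, against 31.9%). The median member was 1.10-fold higher in control 402 than in control 401, and 1.08-fold higher in VPA 392 than in VPA 393.

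**Figure D4:**
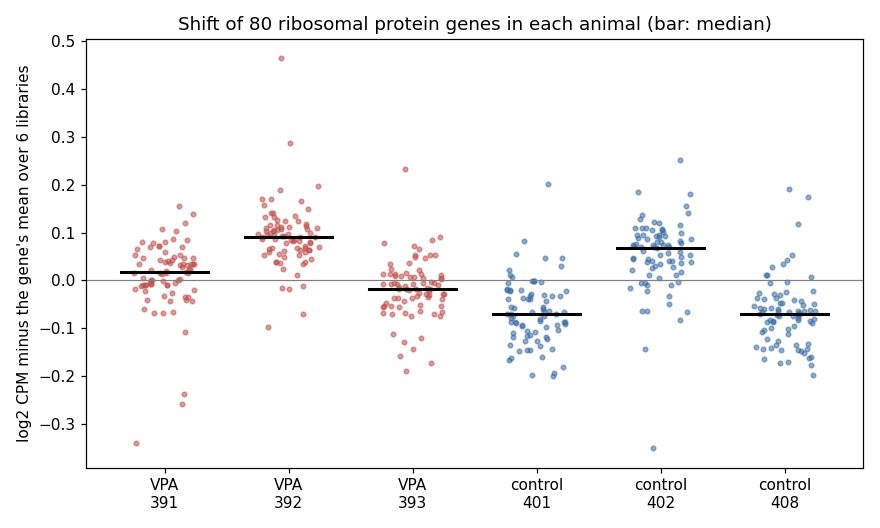
Log2 CPM of 80 members minus its mean over the 6 libraries, by animal (points; red VPA, blue control), with the median as a bar. The medians are 0.02, 0.09 and -0.02 in VPA and -0.07, 0.07 and -0.07 in control, so control 402 stands with VPA 392.

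Summed over the 81 members, the level was 21755.1, 22660.9 and 21075.1 CPM in VPA 391, 392 and 393, against 20445.2, 22251.3 and 20354.2 CPM in control 401, 402 and 408. The 95% Wilson half-width of each sum was at most 72.3 CPM, which covers counting error only. The means were 21830 ± 796 CPM in VPA and 21017 ± 1070 CPM in control (SD, n = 3 each), 1.04-fold, with control 402 above both VPA 391 and VPA 393. The sum of large-subunit members ran from 12680 to 13640 CPM in VPA and from 12290 to 13430 in control. That of small-subunit members ran from 8397 to 9021 CPM in VPA and from 8019 to 8819 in control, in the same order of high and low animals apart from the lowest pair.

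Some members departed from the shared order; these were picked after their values were seen. RPL14, a large-subunit protein, had 235.7, 226.8 and 190.4 CPM in VPA, against 229.8, 209.6 and 212.8 CPM in control. It was highest in VPA 391 and lowest in VPA 393, and control 402 was its lowest control. RPS2 was highest in VPA 392 at 989.1 CPM, but next highest in control 401 at 951.2. In 13 of 81 members control 402 was not the highest control, among them RPSA, RPS2, RPS9, RPS14 and RPL14.

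FAU, a ribosome gene outside the rule, was highest in VPA 392 and control 402. FAU, made as a fusion of a ubiquitin-like protein with a small-subunit protein, had 128.3, 139.6 and 136.4 CPM in VPA, against 126.1, 138.4 and 121.4 CPM in control. The median shift of FAU, RPL36AL and the scaffold gene RACK1 was 0.05, 0.09 and 0.04 in VPA, against -0.10, 0.07 and -0.12 in control. RACK1 had 294.0, 313.0 and 291.2 CPM in VPA, against 264.1, 284.5 and 260.4 CPM in control (log2 fold change 0.14 ± 0.053, edgeR adjusted p = 0.237). Its groups did not overlap, and control 402, though its highest control, lay below every VPA animal. RPL36AL had 81.6, 81.8 and 72.2 CPM in VPA, against 72.9, 86.2 and 80.2 CPM in control, with control 402 the highest library.

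Other genes of the translation pathway were set beside them. Over all genes tested in edgeR, 0.362% were called and 50.5% had a positive log2 fold change, so 0 called in so short a list is near that share. Of 21 measured elongation factor and TOP mRNA genes 0 were called, 11 were positive and the median log2 fold change was 0.0018. Their median shift was 0.0049, 0.04 and -0.03 in VPA and -0.03, 0.04 and -0.05 in control, again highest in VPA 392 and control 402. EEF1A1, which brings aminoacyl-tRNA to the ribosome, had 3623, 3673 and 3347 CPM in VPA, against 3178, 3324 and 3205 CPM in control (0.12 ± 0.055, edgeR adjusted p = 0.314). NPM1 lay the other way, at 163.4, 168.5 and 164.4 CPM in VPA and 169.0, 176.1 and 181.0 in control (-0.0972 ± 0.0475, edgeR adjusted p = 0.345). EEF1A1 and NPM1 were named for having the lowest edgeR p-values of this list.

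Initiation factors and mTORC1 regulators had a median log2 fold change of -0.05, with 23 of 29 negative and 0 called. Of all genes tested, 50.5% were positive and 0.362% called. RHEB, the GTPase that activates mTORC1, had 75.5, 85.4 and 85.9 CPM in VPA, against 87.9, 91.9 and 88.8 CPM in control (-0.14 ± 0.061, edgeR adjusted p = 0.305). Ribosome biogenesis genes had a median of -0.05, with 32 of 49 negative and 0 called. At an unadjusted edgeR p under 0.05 stood 7 of these 49, against 16.2% of all genes tested. DDX21, a nucleolar RNA helicase of that list, had 69.1, 61.3 and 66.8 CPM in VPA, against 72.1, 73.5 and 78.7 CPM in control (-0.20 ± 0.067, edgeR adjusted p = 0.184). NOP14 of the small-subunit processome lay the other way, at 36.8, 30.2 and 38.6 CPM in VPA and 29.0, 28.5 and 28.3 in control (0.29 ± 0.095, edgeR adjusted p = 0.172). Median shifts by animal ran from -0.02 to 0.02 in the initiation list and from -0.01 to 0.03 in the biogenesis list.

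Nuclear oxidative phosphorylation subunits, also short and abundant mRNAs, had a median log2 fold change of -0.03. Of 50 measured subunits 34 were negative and 0 called, against 50.5% positive and 0.362% called of all genes tested. The median shift of the subunits was -0.05, 0.02 and -0.0073 in VPA, against 0.0013, 0.04 and -0.02 in control. Control 402 was high in this list too, and the low animal was VPA 391.

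Cell type markers moved with some of the animals. Of all genes tested 50.5% had positive fold changes, and of 20 oligodendrocyte markers 19 did. The median shift of these markers was 0.19, 0.24 and 0.13 in VPA, against -0.03, -0.38 and -0.13 in control. Control 402 was thus the lowest library for oligodendrocyte markers and the highest control for ribosomal proteins. Of 15 astrocyte markers 13 were positive, with shifts of 0.13, 0.15 and -0.03 in VPA and -0.12, -0.04 and -0.13 in control. Endothelial and mural markers stood at -0.13, 0.17 and 0.08 in VPA and at -0.12, 0.05 and -0.13 in control (13 of 16 positive). The summed level of endothelial and mural markers was 771.8 to 971.2 CPM in VPA and 771.9 to 843.8 CPM in control. GABAergic neuron markers stood at -0.01, 0.11 and 0.05 in VPA and at -0.09, -0.035 and -0.08 in control (11 of 15 positive). In the astrocyte, endothelial and GABAergic lists, VPA 392 was the highest library and control 402 the highest control, as for the ribosomal proteins. In the endothelial and mural list VPA 391 (-0.13) was nearly level with control 401 (-0.12) and control 408 (-0.13). For the ribosomal proteins VPA 391 (0.02) stood above both of these controls (-0.07 each).

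Blood cell markers, of which 10 of 19 passed the filter, stood at 0.05, 0.62 and 0.60 in VPA, against -0.73, 0.19 and -0.27 in control. Their summed level was 148.3, 236.8 and 227.5 CPM in VPA 391, 392 and 393, against 46.0, 234.5 and 69.7 CPM in control 401, 402 and 408. This sum was highest in VPA 392 and control 402 and lowest in control 401 and 408, as for the ribosomal proteins, but VPA 393 was close to control 402. By median shift, VPA 393 (0.60) stood above control 402 (0.19) for blood markers. For the ribosomal proteins VPA 393 (-0.02) stood below control 402 (0.07). Glutamatergic neuron markers stood at -0.06, -0.09 and -0.05 in VPA and at 0.07, 0.06 and 0.08 in control (10 of 15 negative). Microglia markers stood at 0.02, 0.06 and 0.06 in VPA and at 0.03, 0.04 and -0.25 in control (10 of 14 positive). Striatal markers stood at -0.21, 0.13 and 1.44 in VPA and at -0.39, -0.54 and -0.39 in control (11 of 11 positive). The part of these cell types in the ribosomal protein values was not tested.

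**Figure D5:**
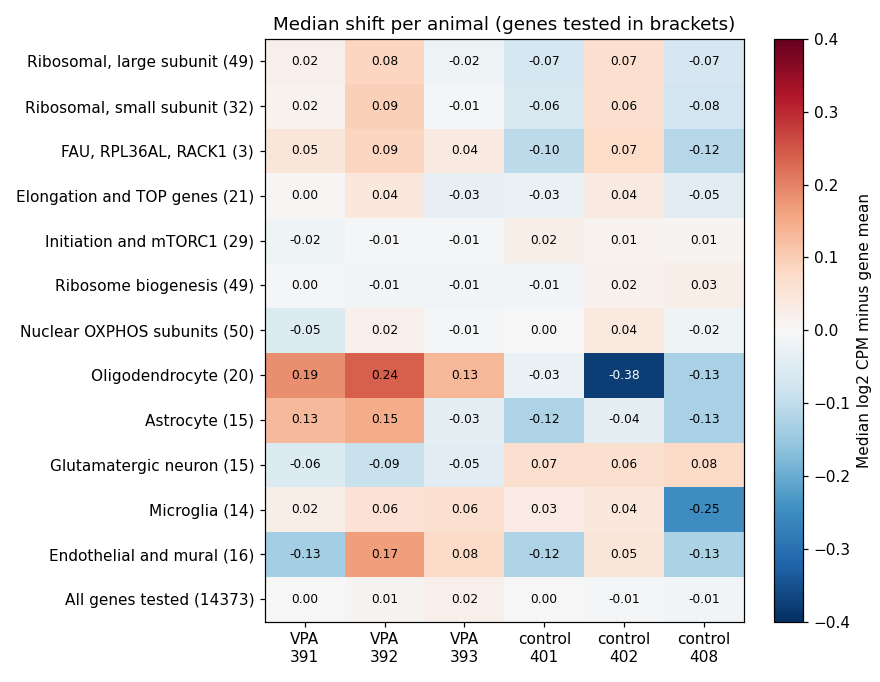
Median log2 CPM minus the gene mean, by animal (columns) for gene lists (rows, with genes tested in brackets); red is higher, blue lower. The medians of both ribosomal subunits and of the 3 ribosome genes outside the rule are highest in VPA 392 and control 402, while that of oligodendrocyte markers is lowest in control 402.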

How the data were processed

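Per the file headers and names, the authors deposited raw counts and FPKM per gene for each of 6 libraries; per the labels' protocols, RNA was extracted with TRIzol and libraries made with a VAHTS Universal V6 kit. The sources used here name no aligner, counting tool, strandedness, build or annotation. Each of the 97071 nonzero FPKM values was its count over file total and a whole-number length (relative tolerance 0.001). All 81 members matched symbols of the RefSeq table of Sscrofa11.1, used for names only; 24 listed names had become dates and stayed in the totals. Members and lists were chosen with earlier results of these data known. Ribosomal protein genes have many processed pseudogenes, whose reads cannot be separated here.

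Counts were analysed with edgeR 4.0.16 in R 4.3.3 (filterByExpr, 14373 genes kept; TMM; glmQLFit and glmQLFTest, no covariate; Benjamini-Hochberg over all genes), checked on simulated data. Standard errors come from the F statistic and 95% intervals from the t distribution of that fit. Its p-values set the group difference against variation between these animals, moderated over genes, with litter unknown. Shifts use log2 CPM with a prior count of 2. Alternatives were other scaling (RLE, upper quartile, file totals, TMM without the members), other filters, DESeq2 1.42.0, limma 3.58.1 on log2(FPKM + 1) and each library left out. Named members follow a rule: lowest p, highest and lowest fold change, highest FPKM, lowest CPM, paralogs with parents, and 11 set genes; others were added to describe a library. A few genes named by it are left out of the text and figures. No sequences are shown.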

Additional observations from a re-analysis of the deposited data

How the results depend on the processing

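The count of called members stayed at 0 under all 17 alternatives, an adjusted p of 0.1 included. Several of these called few or no genes at all, so 0 called members there says little. The number called over all 14373 genes was 52, and 141 with no filter, 444 in DESeq2, 2 in limma with a pseudocount of 1 and 2 with 0.1, 1 in limma with no filter and 344 at an adjusted p of 0.1. Leaving out each library gave 0 to 66 (0 without VPA 391 or VPA 392, 1 without VPA 393, 66 without control 401, 5 without control 402 and 2 without control 408).

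The members' median log2 fold change was 0.04 to 0.06 under other scaling, filters and tools, and 0.02 to 0.09 with a library left out; positive members numbered 62 to 70 and 49 to 74. The log2 ratio of summed CPM was 0.05, and 0.03 to 0.10 with a library left out. Per-animal shifts kept their sign under both TMM scalings. Of 30 named members, none of them called, 17 kept their sign under all 16 refits, as did RPL3L under the 13 that gave it a value. Among scalings and tools RPL11 turned from 0.0031 to -0.0028 (TMM without the members), -0.0021 (no filter) and -0.0001 (DESeq2). RPL26L1 turned from -0.0022 to 0.0020 (upper quartile), 0.0105 (file totals), 0.0199 (limma, with and without filter) and 0.0204 (pseudocount 0.1). With a library left out, the range included zero for RPL11 (-0.0381 to 0.0464), RPL23A (-0.0556 to 0.0845), RPL26 (-0.0704 to 0.1123), RPL26L1 (-0.0823 to 0.1349), RPL37 (-0.101 to 0.0374), RPLP2 (-0.0524 to 0.0568), RPS19 (-0.0181 to 0.0374), RPS27 (-0.068 to 0.0285), RPS27A (-0.0434 to 0.0009), RPS27L (-0.0461 to 0.2000), RPS4X (-0.0166 to 0.0565) and RPSA (-0.0228 to 0.0665). The cause was not tested. No paired analysis was run, because the labels give no litter that would link VPA and control animals.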
